A study of Mus musculus with 58 samples.

Results

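Adipokines are proteins that fat cells secrete, and the 9 genes followed here encode leptin (Lep), adiponectin (Adipoq), resistin (Retn), adipsin or complement factor D (Cfd), retinol binding protein 4 (Rbp4), angiotensinogen (Agt), nicotinamide phosphoribosyltransferase, also called visfatin (Nampt), apelin (Apln) and the protease inhibitor Serpina3n. They were taken by name, and 9 of the 9 symbols were found, each in 1 row of a table of 11603 rows with 11544 distinct symbols. All 9 passed the filter on low values, as did every row of that table. The 22 libraries hold ribosome-bound mRNA from C57BL/6J mice on chow. In NuTRAP mice, cells that express a Cre carry GFP on their ribosomes, and an antibody to GFP pulls down those ribosomes with the mRNA on them (TRAP). The labels name 2 lines, Ucp1-NuTRAP and Adipoq-NuTRAP, whose Cre is driven by the promoter of the brown fat gene Ucp1 or of Adipoq itself, but not the line of each library, so line and group cannot be told apart here. Cold brown libraries (n = 5) came from interscapular brown fat of mice housed at 23 °C and then kept 1 week at 4 °C, and warm brown libraries (n = 5) from the same depot after a further 4 weeks at 30 °C. The same 2 regimes gave cold beige (n = 4) and warm beige (n = 3) libraries, taken from inguinal white fat. Warm white libraries (n = 5) came from inguinal fat of mice that were born and kept at 30 °C, so they had seen neither the cold nor 23 °C. Each library is described as a biological replicate, and whether brown and beige libraries share animals is not stated in the sources used here.

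White fat tells the brain how much energy is stored by secreting leptin, which acts on the hypothalamus to lower food intake. Adiponectin is made almost only by fat cells and acts on liver and muscle through its receptors to raise insulin sensitivity and fat oxidation. Resistin, adipsin, angiotensinogen and retinol binding protein 4 are also released by fat, while Nampt makes the precursor of NAD inside cells and apelin is a peptide that acts on blood vessels and heart. Sympathetic nerves, which cold activates, are known to hold leptin mRNA down in fat.

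The depth of the libraries is unknown, since the table holds log2 CPM (reads of a gene scaled to a common library total) and no counts, and the antilogs summed to 0.859 to 1.10 times the total of a full CPM scale. The labels name no batch, but the values hold a split into 10 and 12 libraries that crosses the groups, called set 1 and set 2 below. With group means taken out, the 2 sets differed by at most 0.005 log2 units in any row, so the deposited values carry almost no difference between them, and what the sets are is not given in the sources used here. Cold brown libraries 1 and 5 stood apart in the summed CPM of 17 endothelial markers, at 289 and 273, against 82.0 to 96.4 in the other cold brown libraries. The summed CPM of 16 fibroblast and preadipocyte markers ran from 167 to 312 in cold brown, 1020 to 1200 in warm brown, 1780 to 2230 in cold beige, 8420 to 12400 in warm beige and 12500 to 15000 in warm white. Gsn and Pdgfra, 2 of them, averaged 12.43 and 4.93 log2 CPM in warm beige, and Gsn averaged 13.19 in warm white. The endothelial sum was 197 to 335 in warm brown, 262 to 579 in cold beige, 810 to 1250 in warm beige and 79.2 to 131 in warm white. The sum of 8 adipocyte markers ran from 10500 to 17700 across all libraries, that of 6 brown and beige markers was 5300 to 6180 in cold beige and 124 to 265 in warm beige, and no T cell, B cell or mammary marker was among the rows. The sum of 11 macrophage markers was 11.5 to 19.5 in cold brown, 26.4 to 38.2 in warm brown, 73.9 to 122 in cold beige, 194 to 217 in warm beige and 89.2 to 154 in warm white. Of 12 skeletal muscle markers 10 were higher and 2 lower in warm than in cold beige, where 36.0% of all rows were higher and 36.9% lower. Their sum was 40.6 to 91.6 in cold beige, and 342, 312 and 71.7 in warm beige. It was 199 to 289 in cold brown and 46.7 to 67.7 in warm brown. In warm white 2 it was 615, against 39.8 to 56.6 in the other warm white libraries. The share of the ribosomal RNA precursor Rn45s in the total signal was 0.0575% to 0.0994% in cold brown, 0.110% to 0.597% in warm brown, 0.436% to 1.15% in cold beige, 4.32% to 5.72% in warm beige and 2.06% to 2.41% in warm white. These values move with several results below, and their part in them was not tested. In bulk libraries, fewer cells of a type and less mRNA per cell cannot be told apart.

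In GRCm38.p6 coordinates, Lep lies on chromosome 6 at 29060221 to 29073876 (transcript uc009bcv.1 in the table), and Adipoq on chromosome 16 at 23146536 to 23157968 (uc007ytk.1). Retn and Agt share chromosome 8, at 3655770 to 3659818 (uc009ksh.2) and 124556587 to 124569706 (uc009nxe.1). Cfd is on chromosome 10 at 79890853 to 79892655 (uc007gaj.3), Rbp4 on chromosome 19 at 38116620 to 38125321 (uc008hje.2) and Apln on chromosome X at 48025146 to 48034853 (uc009tbu.1). Chromosome 12 holds Nampt at 32820335 to 32853369 (uc007nif.2) and Serpina3n at 104406646 to 104414334 (uc007oxg.1). The table does not normalise for transcript length, so the values below are compared between groups and not between genes.

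The promoters of 4 members are shown because their mRNA took different courses: leptin and adipsin rose with warming in both fat types, apelin fell in both, and adiponectin moved little. Each stretch is the 250 bases before the transcription start in RefSeq (GRCm38.p6), read on the gene's own strand from 5′ to 3′. Capitals mark 3 motifs searched on both strands: TTGCGCAA, a palindrome that C/EBP factors can bind, TATAA, the core of the TATA box, and CCAAT, bound by NF-Y.
Lep, chr6:29059971-29060220, plus strand: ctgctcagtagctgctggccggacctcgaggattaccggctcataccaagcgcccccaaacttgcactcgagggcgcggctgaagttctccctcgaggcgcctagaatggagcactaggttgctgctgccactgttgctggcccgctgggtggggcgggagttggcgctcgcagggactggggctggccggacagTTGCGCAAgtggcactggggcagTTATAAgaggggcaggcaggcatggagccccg
Cfd, chr10:79890603-79890852, plus strand: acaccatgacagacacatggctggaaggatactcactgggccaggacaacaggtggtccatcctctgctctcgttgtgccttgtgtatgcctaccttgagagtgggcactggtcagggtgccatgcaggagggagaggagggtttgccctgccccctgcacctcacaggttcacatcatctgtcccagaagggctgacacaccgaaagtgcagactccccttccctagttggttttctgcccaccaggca
Adipoq, chr16:23146286-23146535, plus strand: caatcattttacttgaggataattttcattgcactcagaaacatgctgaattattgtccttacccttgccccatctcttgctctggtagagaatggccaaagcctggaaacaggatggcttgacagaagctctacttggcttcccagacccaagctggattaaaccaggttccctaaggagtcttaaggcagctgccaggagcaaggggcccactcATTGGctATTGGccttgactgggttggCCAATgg
Apln, chrX:48034854-48035103, minus strand: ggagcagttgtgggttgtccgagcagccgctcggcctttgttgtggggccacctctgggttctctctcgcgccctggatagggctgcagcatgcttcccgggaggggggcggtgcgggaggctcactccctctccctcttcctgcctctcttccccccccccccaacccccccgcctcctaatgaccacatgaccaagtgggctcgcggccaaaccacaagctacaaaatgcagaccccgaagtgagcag
The Lep stretch holds TTGCGCAA 55 bases before the start, a string found in 54 of 32851 RefSeq promoter windows of the same length (0.164%). It also holds TATAA on both strands in overlapping letters, 32 and 31 bases before the start (22.8% of windows hold one). Adipoq has 3 CCAAT matches, 34, 27 and 7 bases before its start (33.8% of windows hold one), and no TATAA. Neither the Cfd nor the Apln stretch has any of these 3 motifs. Of the unmarked strings, GGGCGG lies 98 bases before the start in Lep and 144 in Apln (32.7% of windows hold one). AGGTCA and TGACGTCA are in none of the 4 stretches. These matches describe letters and are no evidence of binding.

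Most of the 9 mRNAs differed between cold and warm libraries in both fat types, with the same direction for the 6 genes called in both. Warm libraries also came after a further 4 weeks, so temperature and time cannot be told apart, and warming names both together. Leptin, adipsin, resistin and Serpina3n were higher in warm libraries, apelin and Nampt were lower, adiponectin rose in beige fat, and Rbp4 fell in brown fat. In brown fat 4 of 9 rose and 3 fell at an adjusted p of 0.05 (limma, adjusted over all rows), where 71.3% of all rows were called, 41.2% higher and 30.1% lower. The members' median log2 difference was 0.25 and that of all rows 0.13. In beige fat 5 of 9 rose and 2 fell, where 72.9% of all rows were called, 36.0% higher and 36.9% lower. Here the median was 1.41 for the members and 0.03 for all rows. The groups did not overlap for 6 members in brown fat, where that held for 63.0% of all rows, and for 7 in beige fat, where it held for 66.4%. The counts of calls, 7 of 9 in each fat type, and of groups without overlap are thus close to the shares among all rows.

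**Figure D1:**
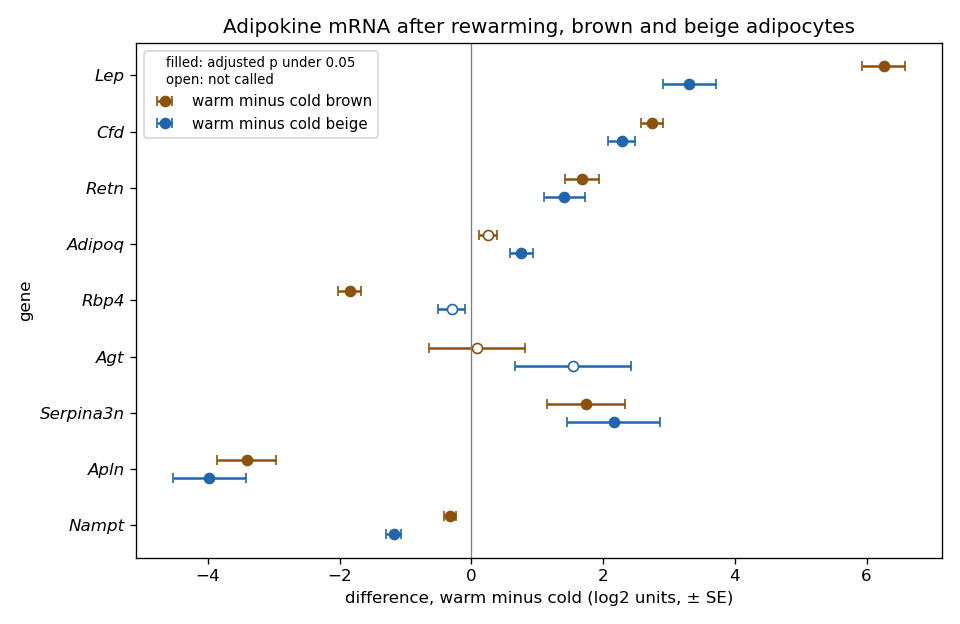
Log2 difference between warm and cold libraries for each of the 9 adipokine genes, in brown and in beige fat, with bars for the standard error and open points where the adjusted p missed the threshold. Lep stands farthest above 0, at 6.26 in brown and 3.31 in beige fat, and Apln farthest below it, at -3.41 and -3.98.

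Leptin mRNA was almost missing from cold brown fat and rose from a group mean of 2.86 CPM to 219 CPM with warming. In the 5 cold brown libraries Lep was at 1.98, 1.83, 0.80, 2.08 and 0.90 log2 CPM, and in the 5 warm brown libraries at 7.51, 7.96, 8.43, 7.69 and 7.29. The lowest warm library was more than 5 log2 units above the highest cold one. The difference was 6.26 ± 0.33 log2 units (SE; adjusted p = 2.25e-13), a 76.5-fold rise. In beige fat Lep stood at 6.12, 5.08, 6.72 and 5.98 in the cold and at 10.35, 9.0 and 8.51 after warming. These groups did not overlap either, and the rise was 3.31 ± 0.40 (adjusted p = 1.34e-07), or 9.93-fold. Lep thus rose by 2.95 ± 0.52 log2 units less in beige than in brown fat (test of the difference, adjusted p = 6.64e-05). In that test 47.2% of all rows were called, 14.8% with the larger value in beige and 32.4% in brown. Inside set 1 the rises were 5.83 in brown and 2.46 in beige fat, and inside set 2 they were 6.54 and 3.78. The low cold brown level makes the size depend on the scale. With 1 CPM added before the logarithm the rises were 5.81 and 3.29, and their difference -2.52. Across all alternatives the brown rise ran from 4.81 to 6.54 and the difference from -3.48 to -1.60.

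The smaller rise of Lep in beige fat began from a higher cold level. Cold beige libraries averaged 5.98 ± 0.68 log2 CPM (SD, n = 4) and cold brown ones 1.52 ± 0.62 (n = 5), a difference of 4.46 ± 0.35 (SE; adjusted p = 6e-10). The order of Lep was warm white at 10.34 ± 0.34, warm beige at 9.29 ± 0.95, warm brown at 7.78 ± 0.44, cold beige and cold brown, and each neighbour differed from the next. The step from warm beige to warm white, 1.06 ± 0.38 (adjusted p = 0.0315), is the weakest of these. White libraries lay at 9.92, 10.25, 10.56, 10.19 and 10.80, and the first warm beige library, at 10.35, was inside that range while the other two were below it. Warm beige minus warm white was -1.81 in set 1 and -0.70 (adjusted p = 0.386) in set 2. Its adjusted p no longer passed the threshold when any of 4 libraries was left out: it was 0.12 without warm beige 2, 0.217 without warm beige 3 (difference -0.67), 0.0577 without warm white 3 and 0.0688 without warm white 5. With the library number as a block it was 0.0599.

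Adipsin, the protease that starts the alternative complement pathway, rose in both fat types. Cfd was at 8.30, 7.42, 7.59, 7.18 and 8.23 log2 CPM in cold brown and at 10.61, 10.39, 10.49, 10.49 and 10.44 in warm brown libraries. The warm libraries lay within 0.3 log2 units of each other and all above the cold ones, in which libraries 1 and 5 were the highest. The rise was 2.74 ± 0.17 (adjusted p = 2.8e-12), or 6.68-fold. In cold beige it was at 10.19, 10.13, 10.43 and 10.18 and in warm beige at 12.68, 12.73 and 12.14, with no overlap and a rise of 2.28 ± 0.20 (adjusted p = 1.08e-09), or 4.87-fold. Inside sets 1 and 2 Cfd rose by 2.64 and 2.81 in brown and by 1.96 and 2.42 in beige fat. The difference between the 2 rises, -0.46 ± 0.26, missed the threshold (adjusted p = 0.164), but was -0.59 (adjusted p = 0.0488) without cold brown 1, and -0.80 (adjusted p = 0.00226) without cold brown 1 and 5, the libraries with the high endothelial sums. With quantile normalization it was -0.94 (adjusted p = 0.00222). Warm white libraries held 12.85, 13.09, 12.65, 12.72 and 12.64, and warm beige was 0.27 ± 0.19 below them, which missed the threshold (adjusted p = 0.279). Cfd was at 10.48 ± 0.08 in warm brown and at 10.23 ± 0.13 (SD) in cold beige, with overlapping libraries. Their difference missed the threshold in the fit of all 5 groups (adjusted p = 0.221). Cold beige minus warm brown passed it with only these 2 groups in the fit (-0.25, adjusted p = 0.0129). It also passed with quantile normalization (-0.45, adjusted p = 0.0193).

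Resistin, a hormone of mouse white fat, followed the depot more than the temperature. Retn was at 0.62, -0.17, 0.31, -0.62 and 1.29 log2 CPM in cold brown and at 2.32, 1.88, 1.66, 1.95 and 2.04 in warm brown libraries. It was at 6.47, 6.50, 7.14 and 6.67 in cold beige and at 7.38, 8.56 and 8.37 in warm beige. Every beige library was thus above every brown one, and within each fat type the warm libraries were above the cold ones. Warming raised Retn by 1.68 ± 0.26 in brown (adjusted p = 4.06e-06) and by 1.41 ± 0.31 in beige fat (adjusted p = 0.000325). The brown rise was 1.88 inside set 1 and 1.56 inside set 2, and the beige one 1.80 and 1.15, the last of which missed the threshold (adjusted p = 0.0542). Cold beige stood 6.41 ± 0.27 above cold brown and warm beige 6.13 ± 0.30 above warm brown, or 85.0-fold and 70.2-fold. The brown levels were low, with group means of 1.22 CPM in the cold and 3.92 CPM after warming. With 1 CPM added before the logarithm the brown rise was 1.11 and the beige-brown gap in the cold 5.52. With quantile normalization they were 0.78 and 5.49. The 2 warming rises differed by -0.28 ± 0.40 (adjusted p = 0.599). That difference turned to 0.87 with 5 CPM added before the logarithm (adjusted p = 0.00392) and to 0.87 with quantile normalization (adjusted p = 0.0277), so its direction rests on the scale. Warm white libraries held 9.35, 9.24, 9.44, 9.43 and 9.30, all above the warm beige ones, by 1.25 ± 0.30 (adjusted p = 0.00187).

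Adiponectin mRNA differed little between cold and warm brown fat. Adipoq was at 9.48, 9.39, 9.28, 9.23 and 9.41 log2 CPM in cold brown and at 9.47, 9.92, 9.41, 9.71 and 9.52 in warm brown libraries, and these ranges overlap. The difference of 0.25 ± 0.14 missed the threshold (adjusted p = 0.111). It was past it under several other scalings, among them quantile normalization (adjusted p = 0.00377) and a common library total (adjusted p = 0.0172). The same held with only these 2 groups in the fit (adjusted p = 0.0226) and with library weights (adjusted p = 0.0329). Beige libraries held 8.06, 8.32, 8.86 and 8.99 in the cold and 9.51, 9.37 and 9.06 after warming. The lowest warm library was only just above the highest cold one, and the rise was 0.76 ± 0.17 (adjusted p = 0.000331), or 1.69-fold. It was 0.85 (adjusted p = 0.000354) in set 2 and 0.54 (adjusted p = 0.211) in set 1, which has 1 warm beige library. Whether the rise is larger in beige than in brown fat is not settled by its test, at 0.51 ± 0.22 (adjusted p = 0.0572). Leaving out 1 library at a time gave 0.34 to 0.65, with 4 of 17 fits past the threshold, the ones that lacked warm beige 3, warm brown 2, or either of cold beige 3 and 4. Warm white libraries, at 10.22, 10.14, 10.06, 10.19 and 9.96, were all above the others, and next came warm brown at 9.61 ± 0.21 (SD), cold brown at 9.36 ± 0.10, warm beige at 9.31 ± 0.23 and cold beige at 8.56 ± 0.44. In the fit of all 5 groups, neither warm brown against cold brown nor warm beige against cold brown (adjusted p = 0.797) passed the threshold. With quantile normalization warm beige was 0.41 above cold brown (adjusted p = 0.029).

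Retinol binding protein 4, the carrier of retinol in blood, went its own way. Rbp4 was at 6.82, 5.83, 5.77, 5.63 and 5.78 log2 CPM in cold brown and at 3.71, 4.31, 3.99, 4.07 and 4.50 in warm brown libraries. It fell by 1.85 ± 0.18 log2 units in brown fat (adjusted p = 4.08e-09), a 3.61-fold drop with no overlap, and by 1.64 without cold brown 1, whose value of 6.82 stands apart. The change was -2.32 inside set 1 and -1.54 inside set 2. In beige fat it was at 5.26, 5.33, 5.32 and 5.32 in the cold and at 4.78, 5.43 and 4.81 after warming. Those groups overlap and their difference of -0.30 ± 0.21 missed the threshold (adjusted p = 0.21). The 2 changes differed by 1.55 ± 0.28 (adjusted p = 8.53e-05), by 1.84 inside set 1 and by 1.32 inside set 2. The highest level was in warm white, at 7.15, 7.18, 7.44, 7.40 and 7.24, and cold brown was second. Rbp4 in warm beige was 2.28 ± 0.20 below warm white (adjusted p = 1.71e-08), a 4.84-fold gap.

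Angiotensinogen, the precursor of the angiotensins, and Serpina3n, an inhibitor of serine proteases, belong to the same protein family, the serpins, and were highest in warm white fat. Agt was at 5.08, 5.25, 4.89, 5.79 and 5.07 log2 CPM in warm white libraries. It was at -1.86, -5.78, -1.59, -3.91 and -0.88 in cold brown and at -1.43, -2.50, -4.07, -2.67 and -2.93 in warm brown libraries, all under 1 CPM. Cold beige held -1.63, -1.77, -1.03 and 1.14, and warm beige 0.37, 1.45 and 0.34. Warm white was thus the only group with more than a few CPM of Agt in every library. The warm beige mean was 4.50 ± 0.84 below it (adjusted p = 0.0002). Neither the brown difference, 0.08 ± 0.73 (adjusted p = 0.924), nor the beige one, 1.54 ± 0.88 (adjusted p = 0.118), passed the threshold. The beige one did so without cold beige 4, at 2.20 (adjusted p = 0.0297), and with 1 CPM added before the logarithm, at 0.67 (adjusted p = 0.0285). Cold beige was 1.98 ± 0.77 above cold brown (adjusted p = 0.0302), a call lost without cold brown 2, cold brown 4 or cold beige 4 (adjusted p = 0.106, 0.0741 and 0.148).

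Serpina3n showed a ladder of levels from brown through beige to white fat. It was at -1.75, -5.68, -2.15, -4.01 and -1.69 log2 CPM in cold brown and at -2.26, 0.53, -1.80, -1.65 and -1.38 in warm brown libraries. Nearly all of these are under 1 CPM, and the ranges overlap. Beige libraries held 2.63, 2.46, 3.18 and 3.84 in the cold and 4.75, 5.44 and 5.38 after warming, and white ones 8.31, 8.14, 8.18, 8.79 and 8.56, with no overlap between the 3 groups. The rise in beige fat was 2.16 ± 0.71 (adjusted p = 0.00945), and warm beige stayed 3.21 ± 0.68 below warm white (adjusted p = 0.000698), a 9.23-fold gap. Inside set 2 that rise was 2.28 (adjusted p = 0.00509), and inside set 1, with 1 warm beige library, it was 2.14 (adjusted p = 0.243). The difference of 1.74 ± 0.59 in brown fat (adjusted p = 0.0113) lies at levels where few reads are counted, and it shrank to 0.32 (adjusted p = 0.176) with 1 CPM added before the logarithm. Inside sets 1 and 2, with fewer libraries, it was 2.85 and 1.01 and missed the threshold (adjusted p = 0.0724 and 0.0883), as it did with quantile normalization (0.63, adjusted p = 0.328). How reads shared between Serpina3n and its close copies in the Serpina3 cluster were counted is not given in the sources used here, so its level is uncertain by that share.

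Apelin was the member most lowered by warming. Apln was at 5.42, 5.88, 4.97, 5.39 and 5.52 log2 CPM in cold brown and at 2.07, 1.86, 2.06, 2.22 and 1.94 in warm brown libraries. It was at 4.50, 4.45, 4.51 and 4.48 in cold beige and at -0.91, 1.80 and 0.61 in warm beige libraries. No warm library reached any cold one, and the cold beige libraries were nearly identical while the warm beige ones spread over more than 2 log2 units. Apln fell by 3.41 ± 0.45 in brown fat (adjusted p = 6.26e-07) and fell by 3.98 ± 0.55 in beige fat (adjusted p = 9.39e-07), or 10.6-fold and 15.8-fold. Inside sets 1 and 2 the changes were -3.68 and -3.22 in brown and -3.88 and -4.04 in beige fat. The 2 falls differed by -0.58 ± 0.71 (adjusted p = 0.528), an interval that leaves room for a difference either way. Warm white libraries were at 0.90, 0.92, 0.00, 0.45 and -2.20 and overlap with warm beige (0.49 ± 0.52 higher, adjusted p = 0.487). Warm brown was 1.53 ± 0.52 above warm beige (adjusted p = 0.0113), but only 0.82 above it (adjusted p = 0.162) without warm beige 1. Cold beige was 0.95 ± 0.48 below cold brown, which missed the threshold (adjusted p = 0.0898) though the libraries do not overlap, and passed it in 5 alternatives. These were 1 CPM or 5 CPM added before the logarithm (-0.92 and -0.82, adjusted p = 0.00229 and 6.81e-06), only these 2 groups in the fit (adjusted p = 0.000105), library weights (adjusted p = 0.00947) and the title's replicate number as a block (-1.14, adjusted p = 0.04).

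Nampt, the enzyme that makes nicotinamide mononucleotide, fell with warming, more so in beige fat. It was at 9.29, 9.28, 9.27, 9.25 and 9.23 log2 CPM in cold brown and at 8.94, 9.0, 8.79, 9.03 and 8.89 in warm brown libraries. Beige libraries held 8.57, 8.61, 8.66 and 8.71 in the cold and 7.77, 7.45 and 7.16 after warming. Replicates agreed to within 0.3 log2 units in all of these groups but warm beige, and no warm group overlapped with its cold group. The fall was 0.33 ± 0.09 log2 units in brown fat (adjusted p = 0.00208) and 1.18 ± 0.11 in beige fat (adjusted p = 1.74e-09), or 1.26-fold and 2.26-fold. The beige fall was larger by 0.84 ± 0.14 (adjusted p = 3.49e-05), and by 1.16 inside set 1 and 0.68 inside set 2. The small brown fall missed the threshold with quantile normalization (-0.15, adjusted p = 0.112), with a common library total (-0.18, adjusted p = 0.0529) and within set 1 (-0.32, adjusted p = 0.0527). Warm white libraries were at 7.32, 7.50, 7.11, 7.49 and 7.53, around the warm beige ones (0.07 ± 0.10, adjusted p = 0.622).

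**Figure D2:**
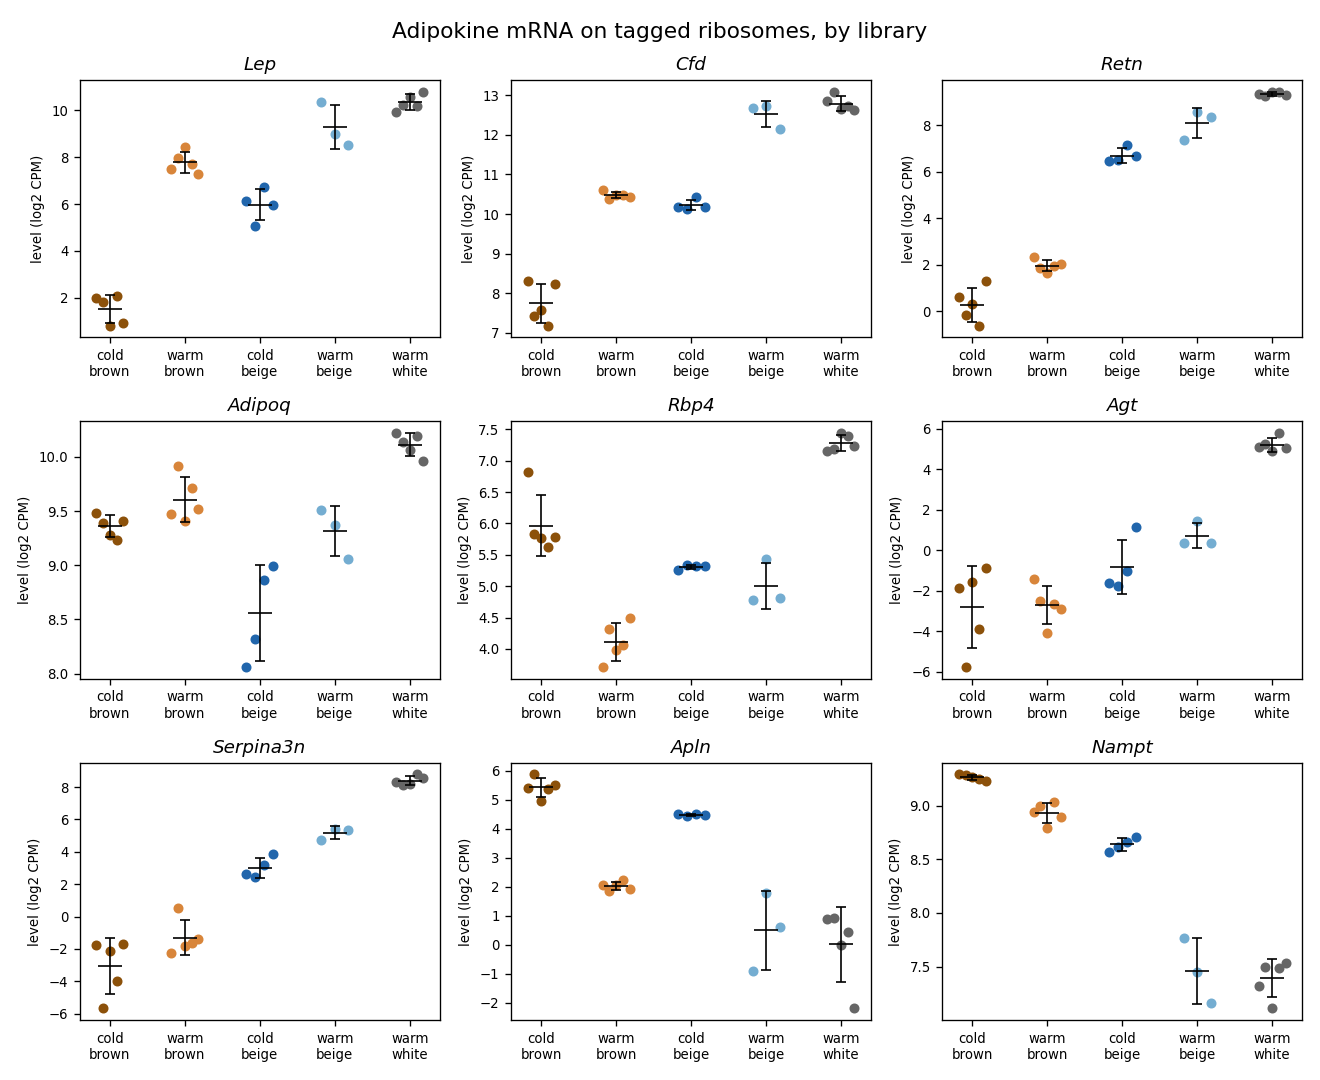
Log2 CPM of each of the 9 adipokine genes in every library, by group, with a point for each library and black bars at the group mean ± SD. Retn and Serpina3n step up from brown to beige to white libraries, Apln is high in both cold groups, and Agt is above 4 only in warm white.

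Inguinal fat gives 3 states for each gene, and the place of warm beige between cold beige and warm white differed between the members. Warm beige reached nearly the white level for Nampt, covering 94.4% of the distance from cold beige to warm white on the log2 scale, for Cfd with 89.3% and for Apln with 89.1%. None of these 3 differed from warm white past the threshold. Lep covered 75.8%, Retn 53.0%, Adipoq 48.6%, Serpina3n 40.3% and Agt 25.5%. Rbp4 covered -15.2%, since its warm beige mean lay on the other side of cold beige. Warm beige and warm white differed for 6 of 9 members, all 6 lower in warm beige, where 39.4% of all rows were called, 17.0% higher and 22.4% lower. For 5 of the 6 the libraries did not overlap, Lep being the exception, and 29.0% of all rows did not overlap. The members' median was -1.06 log2 units and that of all rows -0.04. Inside set 1, with 1 warm beige library, 2 members and 11.2% of all rows were called. The differences of those no longer called there were -0.93 for Retn, -1.05 for Adipoq, -4.79 for Agt and -2.96 for Serpina3n. All 17 endothelial markers were higher in warm beige than in warm white, and the macrophage sum was higher in every warm beige library than in any warm white one. Of the 16 fibroblast markers 8 were higher and 3 lower in warm beige, although their sum, to which Gsn adds, was lower there in every library. Of 8 adipocyte markers, Adipoq among them, 6 were lower and 0 higher in warm beige, with a median of -0.41 log2 units. Of 17 general adipocyte genes 9 were lower and 1 higher, so lower values there were not particular to the members. The warm white mice also differ from the warm beige ones in never having been in the cold.

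**Figure D3:**
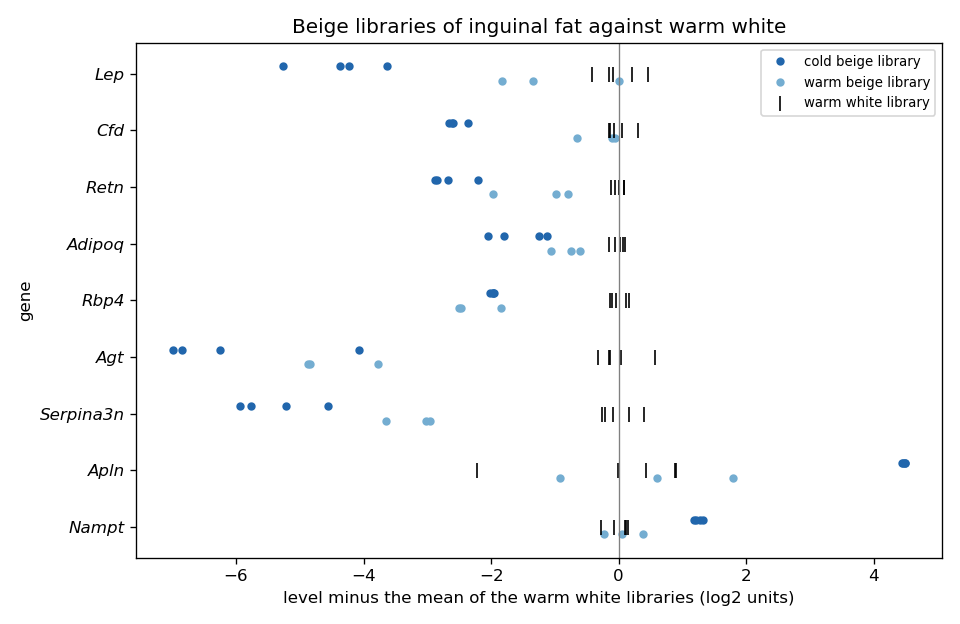
Log2 CPM of the 9 adipokine genes in inguinal fat minus the mean of the warm white libraries, with dark and light points for cold beige and warm beige libraries and black ticks for warm white ones. For Nampt, Cfd and Apln 2 or more warm beige libraries lie in or next to the white range, while for Retn, Adipoq, Rbp4, Agt and Serpina3n all 3 lie below every warm white library.

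Beige and brown libraries taken at the same temperature differed for 8 of 9 members. In the cold 5 were higher in beige fat and 3 lower, where 61.9% of all rows were called, 34.7% higher and 27.2% lower. Besides Retn, Serpina3n was 6.08 ± 0.62 log2 units higher in cold beige than in cold brown and Cfd 2.49 ± 0.18 higher. Serpina3n was under 1 CPM in every cold brown library, and with 1 CPM added before the logarithm its difference was 2.97. Adipoq was 0.80 lower, Rbp4 0.66 lower and Nampt 0.63 lower in cold beige. At 30 °C 6 members were higher in warm beige than in warm brown and 2 lower, where 75.5% of all rows were called, 35.3% higher and 40.1% lower. Lep was 1.51 ± 0.38 higher, Cfd 2.03 ± 0.19, Rbp4 0.89 ± 0.20 and Agt 3.44 higher, while Nampt was 1.47 lower. Agt was under 1 CPM in every warm brown library, and with 1 CPM added before the logarithm its difference was 1.19. Rbp4 was thus the lower of the 2 in cold beige and the higher of the 2 in warm beige. Its cold difference was -0.44 (adjusted p = 0.022) without cold brown 1 and 5. Inside set 2 it was -0.40 and missed the threshold (adjusted p = 0.0753). Adipoq missed the threshold at 30 °C (-0.29, adjusted p = 0.0991). Inside set 1, 4 members and 52.5% of all rows were called at 30 °C, and the differences of those no longer called were 2.31 for Agt, -1.36 for Apln, 0.80 for Rbp4 and 0.78 for Lep. Beige and brown libraries differ in depot as well as in cell type, and the fibroblast and macrophage sums were higher in every beige library than in any brown one.

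Against warm white fat, 9 of 9 members were called in cold beige, in cold brown and in warm brown libraries, with Apln and Nampt higher and the other 7 lower in each. Of all rows, 75.2% were called in cold beige (38.0% higher, 37.2% lower), 85.6% in cold brown (40.4% higher, 45.2% lower) and 79.0% in warm brown (40.9% higher, 38.1% lower). These 3 comparisons share the same 5 warm white libraries. Between fat types and temperatures, cold beige against warm brown had 5 members higher and 3 lower, where 66.9% of all rows were called, 33.0% higher and 33.9% lower. Warm beige against cold brown also had 5 higher and 3 lower, where 84.9% of all rows were called, 44.5% higher and 40.4% lower.

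Receptors and partners of the members were read from lists of genes with a known role beside them. Among all rows 41.2% rose and 30.1% fell in brown fat, and 36.0% rose and 36.9% fell in beige fat. The counts of each list stand against these shares, and none is read as particular to its list. Of 10 measured genes of leptin signalling, 4 rose and 4 fell in brown and 6 rose and 2 fell in beige fat. Socs3, an inhibitor of leptin receptor signalling that leptin induces, rose by 2.75 ± 0.39 in brown and by 3.09 ± 0.47 in beige fat. Stat3, the main transcription factor of that pathway, fell by 0.19 ± 0.06 in brown and rose by 0.56 ± 0.08 in beige fat, a difference of 0.75 ± 0.10. Of 10 genes of adiponectin assembly, retention and reception, 7 rose and 3 fell in brown fat, while 2 rose and 2 fell in beige fat. Appl1, an adaptor of the adiponectin receptors, rose by 1.43 ± 0.09 and 1.55 ± 0.11. Ero1l, an oxidase of the endoplasmic reticulum that helps release adiponectin, fell by 0.51 ± 0.09 and 0.88 ± 0.11. Erp44, which retains adiponectin there, rose by 0.46 ± 0.09 in brown and fell by 0.64 ± 0.10 in beige fat, and the changes differed by 1.10 ± 0.14. The receptor gene Adipor1 rose by 0.50 ± 0.08 in brown fat and was at -0.14 ± 0.09 in beige fat, which missed the threshold.

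Of 12 rows of the angiotensin system, 6 rose and 3 fell in brown and 6 rose and 4 fell in beige fat. Atp6ap2, the prorenin receptor, rose by 0.40 ± 0.11 and by 1.20 ± 0.14. Enpep, an aminopeptidase that trims angiotensin II, fell by 0.79 ± 0.16 in brown and rose by 0.67 ± 0.20 in beige fat, a difference of 1.46 ± 0.26. Ace, the converting enzyme, passed the threshold in neither. Of 5 relatives and receptors of apelin and resistin, 4 rose in brown and 3 in beige fat and none fell. Aplnr, the apelin receptor and a gene of endothelial cells, rose by 2.40 ± 0.41 in brown fat, while its own ligand fell. In beige fat Aplnr was 1.09 ± 0.50 higher, which missed the threshold. Of the 17 endothelial markers, Aplnr among them, 7 were higher and 0 lower in warm brown fat. Of all rows 41.2% were higher there and 30.1% lower. In warm beige fat 12 markers were higher and 0 lower, where 36.0% of all rows were higher and 36.9% lower. The markers' median log2 difference was 0.74 in brown and 1.25 in beige fat, against 0.13 and 0.03 for all rows. Their part in the change of Aplnr was not tested.

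Of 6 complement genes beside Cfd, 3 rose and 1 fell in brown and 2 rose in beige fat. Cfb, the protein that factor D cleaves, rose by 0.95 ± 0.22 and 1.71 ± 0.27, whereas C3, the central component, fell by 1.18 ± 0.14 in brown fat and was at -0.05 ± 0.17 in beige fat. Of 14 genes of NAD synthesis and use beside Nampt, 5 rose and 6 fell in each fat type. Nmnat1, the next enzyme after Nampt in the nucleus, fell by 1.09 ± 0.14 and 2.65 ± 0.17, in the same direction as Nampt and also more in beige fat (difference -1.56 ± 0.22). Nnmt, which methylates nicotinamide and so takes it from Nampt, fell by 1.52 ± 0.15 in brown and rose by 0.83 ± 0.18 in beige fat. Of 9 serpins, 5 rose and 1 fell in each fat type, among them Serpina3c with 2.48 ± 0.19 and 2.22 ± 0.23.

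Of 34 other secreted factors of fat, 15 rose and 10 fell in brown fat, and 14 rose and 12 fell in beige fat. Bmp8b, a cold-induced factor of brown fat, fell by 7.27 ± 0.83 and 6.85 ± 1.01, and Inhbb, a subunit of activin B, rose by 3.51 ± 0.27 and 4.97 ± 0.33. Igf1 rose by 4.18 ± 0.23 in brown and by 2.11 ± 0.28 in beige fat. Pm20d1, an enzyme that makes lipidated amino acids, rose by 0.84 ± 0.20 in brown and fell by 4.03 ± 0.24 in beige fat, a difference of 4.87 ± 0.31. Nrg4, a factor of thermogenic fat, fell by 1.92 ± 0.25 in beige fat and was at -0.03 ± 0.21 in brown fat. Of 15 transcription factors described for adipokine genes, 4 rose and 6 fell in brown and 5 rose and 6 fell in beige fat. Nr4a1 rose by 2.21 ± 0.42 in brown and fell by 1.66 ± 0.5 in beige fat, and Nr1h3 fell by 1.9 ± 0.1 and 1.45 ± 0.12. Ppara fell by 3.48 ± 0.17 in beige fat and was at 0.11 ± 0.14 in brown fat. Fosl2 rose by 0.84 ± 0.12 and 1.91 ± 0.14. The changes of 2 other factors were smaller. Cebpa, one of the C/EBP factors, rose by 0.35 ± 0.11 and 0.77 ± 0.13, and Pparg, which drives the fat cell program, fell by 0.33 ± 0.13 and 0.45 ± 0.16. The part of these factors in the members' changes was not tested.

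Across all 22 libraries the genes most like each member were found by Pearson's r of the log2 values, as a description only, because the 5 groups make these values move together. For Lep they were Cc2d2a (0.986), Ctso (0.985) and Sdc2 (0.984). Retn was nearest to Lrrk2 (0.995), Chrd (0.993) and Dennd2a (0.992), and Cfd to Ube2l6 (0.993), Mcam (0.992) and H2-D1 (0.991). Adipoq had the weakest match, with Sil1 (0.923), Lrpap1 (0.917) and Usp54 (0.912). Rbp4 was nearest to Lrp11 (0.940), Atp9a (0.928) and Cidec (0.919), and Nampt to Wwp1 (0.989), Ampd3 (0.989) and Hibch (0.988). Apln was nearest to Fbxo44 (0.966), Agt to Prkcdbp (0.957) and Serpina3n to Nid1 (0.986).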

How the data were processed

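Ribosome-bound mRNA was analysed in 22 of the 58 samples; the 36 chromatin samples were not analysed here. The submitters' processing notes name HISAT2, Picard, featureCounts, edgeR and mm10; versions, annotation, strand setting and the rule for shared reads are not given in the sources used here. The authors deposited log2 CPM values for 11603 rows, from -7.21 to 15.78, with values of -5 or less treated as the floor. Depth cannot be recovered from them. Columns were matched to samples by name, and groups were taken from the labels.

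The deposited log2 values were tested with limma 3.58.1 (limma-trend, R 4.3.3) on 5 group means, with 17 residual degrees of freedom and no covariate. Tests are two-sided, with Benjamini-Hochberg adjustment over all rows that reached 1 CPM in 3 libraries, and a threshold of 0.05. Fold changes are antilogs of log2 differences and are imprecise under 1 CPM. Sets 1 and 2 were read from the values, and no label names them. Group means were taken out, and each library was placed by its sign in the direction of least remaining variation. In a fit beside the group means the term of this split was at most 0.005 log2 units. With the depots joined the other way it was up to 1.9. The test was also tried on simulated data. P-values measure the spread between these libraries only.

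The members and gene lists were chosen with earlier results of these data known. All 9 members are named. From each list at most 4 called genes per comparison, by size, were eligible to be named, besides the members of the leptin, adiponectin, angiotensin, apelin and resistin lists. Cebpa and Pparg were added after their values were seen. The most similar genes named were the top 3 of each member or fewer. Alternatives covered added CPM, filters, scaling, library weights, blocks, sets and leaving out libraries. Promoters came from RefSeq, GRCm38.p6.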

Additional observations from a re-analysis of the deposited data

Results flagged for a closer look

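In groups of 4 or 5 libraries, the gap of the highest or lowest value to its neighbour was set against the range of the group, and 2 of 36 groups passed Dixon's limit, about as many as the 1 in 20 that chance gives. Rbp4 in cold brown 1 was at 6.82 log2 CPM, against 5.63 to 5.83 in the other 4 libraries. Without that library Rbp4 fell by 1.64 log2 units in brown fat (limma, adjusted p = 5.61e-10). Rbp4 in cold beige 1 was at 5.26, only 0.06 below the next library, in a group whose values are very close together. Without it the beige difference was -0.32 (adjusted p = 0.23).

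The response to warming differed between beige and brown fat for 3 of 9 members by the test of the difference itself, where 47.2% of all rows were called. Of all rows, 14.8% were called with the larger value in beige and 32.4% in brown fat. Lep rose less in beige fat (-2.95), Rbp4 fell in brown fat but not past the threshold in beige fat (1.55), and Nampt fell more in beige fat (-0.84). Each of the 3 kept its call in 17 of 17 fits that left out 1 library.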

How the results depend on the processing

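Of the alternative values for members, 2363 kept direction and side of the threshold, 32 gained and 50 lost the call and 30 reversed. The causes were not tested, and most reversals started near 0. Brown warming of Agt turned to -0.07 with 1 CPM added, -0.02 with 5 CPM, -1.30 with quantile normalization, -0.66, -0.19 and -0.24 without cold brown 2, cold brown 4 and warm brown 1, and -1.10 in set 2 (without 1 library, -0.66 to 0.56). The difference of warming turned for Retn (0.29 with 1 CPM, 0.87 with 5 CPM, 0.87 with quantiles, 0.09 without warm beige 1; -0.53 to 0.09 without 1 library), Apln (0.39 with 5 CPM, 0.13 without warm beige 1; -1.23 to 0.13), Agt (-1.27 in set 1) and Serpina3n (-0.70 in set 1, -0.47 without cold brown 1 and 5, a setting chosen after seeing the data, as was the set as a term). Warm beige against warm white turned for Apln (-0.37 with quantiles, -0.16 without warm beige 2, -0.07 without warm white 5; -0.16 to 1.19), Nampt (-0.09 without warm beige 1, -0.29 in set 1; -0.09 to 0.22 without 1 library) and Cfd (0.02 in set 2). Agt in cold beige against cold brown was -0.96 with quantiles. Adipoq in warm beige against cold brown was 0.41 with quantiles, 0.02 with median-of-ratios scaling, 0.14 with a common total, 0.24 without the 20 most abundant genes, 0.08 without warm beige 3, 0.13 in set 2 and 0.01 without cold brown 1 and 5. Counts of all genes called fell in set 1, which has fewer libraries, from 8274 to 5050 in brown warming, 8453 to 5255 in beige warming, 5477 to 1969 in their difference, 4572 to 1304 in warm beige against warm white, 7184 to 3710 in cold beige against cold brown and 7763 to 4489 in cold beige against warm brown, and to 3016 for warm beige against warm white from those groups alone. Members called in the difference of warming rose from 3 to 5 with 5 CPM, 8 with quantiles and 5 in set 2, and fell in set 1 from 6 to 2 against warm white and from 8 to 4 in warm beige against warm brown. Leaving out 1 library at a time gave 7 members in brown warming, 7 to 8 in beige warming, 3 to 4 in their difference and 5 to 6 against warm white. Scaling moved the median of all rows in brown warming by -0.14 to 0.15 and in the difference by up to 0.20. With totals without the 20 most abundant genes, higher calls were 60.8% of beige warming calls (49.4% as deposited) and 61.0% against warm white (43.1%); median-of-ratios scaling gave 53.2% for the latter and 45.2% for the difference (31.3%), where quantiles gave 49.7%. No set of same-numbered libraries correlated above 0.1 in every pair, so the numbers were not taken to pair the samples. For warm beige and warm brown by library number r was 0.183, 0.065 and 0.205, and 6 of 6 libraries matched their own number best. For cold beige and cold brown r was 0.17, 0.19, 0.071 and 0.35, and 6 of 8 matched best. Brown and beige libraries of the same number may thus share animals, which was not tested. The beige against brown tests and the difference of warming treat them as independent. With the library number as a block, Agt lost its call in cold beige against cold brown (1.75, adjusted p = 0.0605). With a replicate block by title number 8267 genes were called in brown and 8352 in beige warming, and 7 members in each.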
